A study of Mus musculus with 6 samples.

Results

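The 10 genes described here belong to the p53 pathway of the mouse: Trp53, which encodes p53 itself, and the targets Mdm2, Ccng1, Sesn1, Zmat3, Phlda3, Trp53inp1, Aen, Plk2 and Btg2. They were chosen by name, and each was read from the brightest probe set whose annotation held that symbol alone. Of the 10 genes, 9 were measured in this way, among 19938 genes tested in all, and Trp53 was not analysed here. The level of p53 mRNA is therefore not part of the comparison, and p53 protein was not measured on these arrays.

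RNA of AGR cells and of NME cells was profiled on Mouse Gene 1.0 ST arrays from Affymetrix, with 3 AGR arrays and 3 NME arrays. The parental NME line consists of NMuMG cells, a mammary gland epithelial line of the mouse, that overexpress EGFR, and both lines carry this overexpression. AGR cells are the progeny of 1 colony of NME cells that grew in 3D culture in the presence of 1 µM AG1478, an inhibitor of the EGFR kinase, so AGR stands for a single resistant colony and NME for the line it grew from. The study's methods state that resistant lines were cultured without drug after they had been established. The labels do not say whether the 3 arrays of a line came from separate cultures, so each p-value reflects the spread between the arrays alone, which may be technical.

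p53 is a transcription factor that is held at a low level by the ubiquitin ligase Mdm2 and accumulates after DNA damage and other stress. It then binds response elements built from a pair of 10-base decamers and switches on genes that arrest the cell cycle, help repair, dampen growth signalling or promote cell death. Several of these targets feed back on p53, Mdm2 first among them, and many also respond to other transcription factors.

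To show where a p53 decamer lies close to a start site, RefSeq promoter windows (assembly GRCm38.p6, 250 bases before to 50 bases after each start) were searched for the p53 decamer consensus, a motif that is its own reverse complement, so that both strands were covered. Windows were found for 8 of the 10 members, Zmat3 and Trp53inp1 being the others. A decamer without mismatch lay in a window of 5 members (Trp53, Aen, Ccng1, Mdm2 and Sesn1). Counted by window, 6 of the 10 windows of these 8 members held one, beside 8.36% of all 32851 windows. The same Aen site was counted in overlapping windows. With at most 1 mismatch Btg2 was added, and 7 of the 10 windows held such a match, beside 50.9% of all windows. The window of Ccng1 held a pair of decamers with at most 1 mismatch each and no base between them, an arrangement found in 0.204% of all windows. The 4 stretches below are those of the measured members with a decamer without mismatch before a start, with the matched bases in capitals (for Ccng1 the adjacent pair). None of these 4 genes passed the test described below.
Ccng1: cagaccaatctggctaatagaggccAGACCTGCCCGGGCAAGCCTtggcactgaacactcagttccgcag
Aen: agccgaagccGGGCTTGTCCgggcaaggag
Mdm2: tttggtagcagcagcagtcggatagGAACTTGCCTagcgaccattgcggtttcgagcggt
Sesn1: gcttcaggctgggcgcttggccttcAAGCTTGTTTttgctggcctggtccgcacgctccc
The Ccng1 stretch is chr11:40755437-40755506 on the minus strand and lies 220 to 151 bases before the start. The Aen stretch is chr7:78895927-78895956 on the plus strand. It lies 131 to 102 bases before the later of the starts with a window for Aen and begins at the earlier one, from which it would be transcribed. Mdm2 is shown at chr10:117710910-117710969 on the minus strand, 211 to 152 bases before the start, and Sesn1 at chr10:41887241-41887300 on the plus strand, 198 to 139 bases before the second of its starts. No such match was found in the windows of Plk2 and Phlda3. A match describes the letters of the window and is not evidence of binding.

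Of the 9 measured members, Plk2, Phlda3 and Zmat3 were higher in AGR cells, Trp53inp1 was lower, and Ccng1, Aen, Mdm2, Sesn1 and Btg2 did not pass the test (limma, Benjamini-Hochberg adjusted p under 0.05 over all 19938 genes). This makes 4 of 9 members called, where 24.2% of all genes tested were called, with 3 members called higher beside 12.6% of all genes and 1 called lower beside 11.6%. All 9 members lay above the median intensity of all probe sets in both lines. Of all genes, 8010 lay below it in both lines. Among the 11702 genes whose mean reached that median, 2549 were called higher and 2239 lower, with 4 members called higher and 1 lower. The shares of all genes given for the lists below include the dim genes. The median log2 fold change (AGR minus NME) of the 9 members was 0.15, against -0.02 over all genes. Trp53inp1 alone also passed a fold change of 2, which 3% of all genes did, 1.5% in each direction. The AGR and NME arrays did not overlap for 6 members, AGR lying above NME for 5 of them and below for 1. Of all genes 36.4% were free of overlap, with AGR above in 17.9% and below in 18.5%. In RNA from whole cultures, fewer cells with a transcript and less transcript per cell cannot be told apart.

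**Figure D1:**
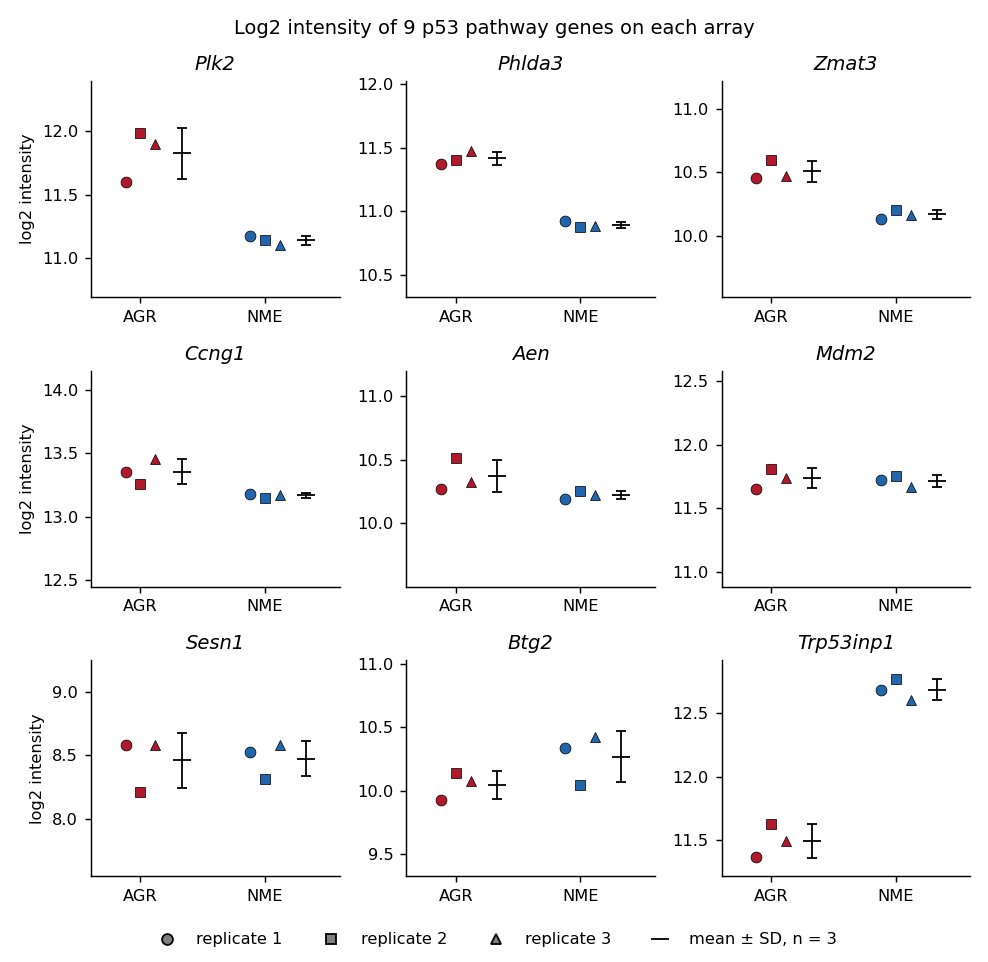
Log2 intensity of the 9 measured p53 pathway genes on each of the 6 arrays, AGR left of NME, with 1 point per array, a marker shape for each replicate number, and the mean ± SD (n = 3) beside the points of each line. Trp53inp1 was lower on all AGR arrays, Plk2, Phlda3 and Zmat3 were higher on all of them, and the 2 lines overlap for Mdm2, Sesn1 and Btg2.

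Among the regulators of p53, Mdm2, the ligase that marks p53 for degradation and is itself a p53 target, had log2 intensities of 11.65, 11.81 and 11.74 on the AGR arrays and of 11.72, 11.75 and 11.67 on the NME arrays. The lines overlapped fully, and the difference was 0.02 with a 95% confidence interval of -0.11 to 0.15 (adjusted p = 0.848). Its relative Mdm4, which binds p53 and blocks its activity, had a log2 fold change of -0.00 (SE 0.07, adjusted p = 0.989) and also overlapped between the lines.

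Ccng1 encodes cyclin G1, which recruits the phosphatase PP2A to Mdm2. It had log2 intensities of 13.36, 13.25 and 13.45 in AGR cells and of 13.18, 13.15 and 13.17 in NME cells. All AGR arrays lay above all NME arrays, by a gap of 0.07 between the nearest of them. The log2 fold change of 0.19 (SE 0.06, 95% confidence interval 0.05 to 0.32) missed the threshold after adjustment (adjusted p = 0.0608), and it passed without the second AGR array (0.24, adjusted p = 0.0168).

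Among the targets that bear on proliferation, Plk2 rose and Btg2 did not pass the test. Plk2, a polo-like kinase that acts in centriole duplication and is also induced by serum, had log2 intensities of 11.60, 11.98 and 11.89 in AGR cells and of 11.17, 11.14 and 11.10 in NME cells. On the linear scale these are intensities of 3102, 4044 and 3806 in AGR cells and of 2310, 2264 and 2202 in NME cells. Every AGR array was brighter than every NME array, and the AGR arrays differed more among themselves (SD 0.20) than the NME arrays did (SD 0.03). Plk2 was 1.61-fold higher in AGR cells (log2 fold change 0.68, SE 0.10, 95% confidence interval 0.45 to 0.92, adjusted p = 0.00274).

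Btg2, an antiproliferative protein that binds the CCR4-NOT deadenylase complex, had log2 intensities of 9.93, 10.14 and 10.08 in AGR cells and of 10.34, 10.04 and 10.42 in NME cells. The second NME array lay between the AGR arrays and the other two lay above them. The log2 fold change was -0.22 (SE 0.11, 95% confidence interval -0.48 to 0.04, adjusted p = 0.218), and without the second NME array it was -0.33 (adjusted p = 0.0394).

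Phlda3, a protein with a pleckstrin homology domain that competes with Akt for membrane lipids and so restrains Akt, had log2 intensities of 11.37, 11.40 and 11.47 in AGR cells and of 10.92, 10.87 and 10.88 in NME cells. The lines were far apart relative to their spread, with SDs of 0.05 in AGR cells and 0.02 in NME cells. Phlda3 was 1.44-fold higher in AGR cells (log2 fold change 0.52, SE 0.05, 95% confidence interval 0.41 to 0.63, adjusted p = 0.00033).

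Zmat3, a zinc finger protein that binds RNA and influences splicing and mRNA stability, had log2 intensities of 10.45, 10.60 and 10.47 in AGR cells and of 10.14, 10.21 and 10.17 in NME cells. Its AGR arrays all lay above its NME arrays. Zmat3 was 1.26-fold higher in AGR cells (log2 fold change 0.34, SE 0.05, 95% confidence interval 0.21 to 0.47, adjusted p = 0.00438).

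Aen, a nuclease that promotes apoptosis, had log2 intensities of 10.27, 10.51 and 10.32 in AGR cells and of 10.19, 10.25 and 10.23 in NME cells. The AGR arrays lay above the NME arrays by a gap of only 0.02. The log2 fold change of 0.15 (SE 0.07, 95% confidence interval -0.02 to 0.31) did not pass (adjusted p = 0.2).

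Trp53inp1 encodes a nuclear protein that promotes the activating phosphorylation of p53 and also acts in autophagy. Its log2 intensities were 11.37, 11.63 and 11.50 in AGR cells and 12.68, 12.77 and 12.61 in NME cells, which are linear intensities of 2640, 3172 and 2892 in AGR cells and of 6579, 6975 and 6233 in NME cells. The brightest AGR array lay 0.97 below the dimmest NME array on the log2 scale. Trp53inp1 fell by 1.19 on the log2 scale in AGR cells (SE 0.08, 95% confidence interval of the log2 fold change -1.37 to -1.0, adjusted p = 0.000102), to an AGR over NME ratio of 0.439.

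Sesn1 encodes sestrin 1, which restrains mTORC1 signalling and oxidative stress. It had log2 intensities of 8.59, 8.21 and 8.59 in AGR cells and of 8.53, 8.32 and 8.59 in NME cells. Replicates 1 and 3 of AGR and replicate 3 of NME held exactly the same intensity of 384.09, and a value shared by 3 or more arrays occurred in 11.3% of all probe sets. The difference of -0.02 has a 95% confidence interval of -0.30 to 0.27 (adjusted p = 0.953), the widest of the 9 members. No other member had a value that repeated between arrays.

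**Figure D2:**
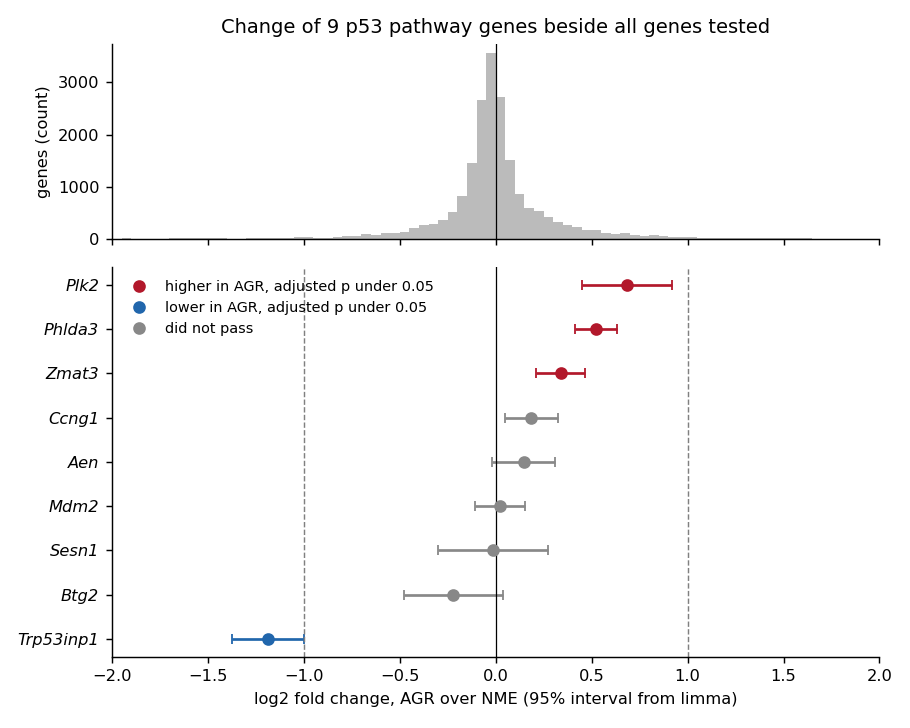
Log2 fold change (AGR minus NME) of the 9 measured members with 95% confidence intervals, below the distribution of log2 fold changes of all 19938 genes tested, with dashed lines at a fold change of 2. In that distribution 134 genes lie beyond the plotted range of 2 in either direction. The intervals of Plk2, Phlda3, Zmat3 and Ccng1 lie above 0, although Ccng1 did not pass after adjustment. That of Trp53inp1 lies far below 0, and those of Mdm2, Sesn1, Aen and Btg2 include 0.

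The members were set beside genes of the same families, which are not necessarily p53 targets. Of 21 measured relatives 4 rose and 8 fell in AGR cells, beside 12.6% and 11.6% of all genes, with a median log2 fold change of -0.19. The methods' t-test called 0 higher and 6 lower, and 7 were called without replicate 3 of AGR or without replicate 1 or 2 of NME. Trp53inp2, the sister gene of Trp53inp1 and an autophagy factor, had log2 intensities of 10.80, 10.90 and 10.76 in AGR cells and of 12.25, 12.12 and 12.28 in NME cells. It was lower in AGR cells like Trp53inp1, by 1.40 on the log2 scale (log2 fold change -1.40, SE 0.06, adjusted p = 2.0e-05).

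The relatives of Phlda3 had changes of the opposite sign to it. Phlda2, an imprinted gene that restrains placental growth, had log2 intensities of 10.13, 10.73 and 10.22 in AGR cells and of 11.82, 11.97 and 11.68 in NME cells, a log2 fold change of -1.47 (SE 0.16, adjusted p = 0.000957). Phlda1 also fell in AGR cells (log2 fold change -0.60, adjusted p = 0.0167), with no overlap between the lines. Phlda3 was thus the only one of the 3 Phlda genes measured that was higher in AGR cells.

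Among polo-like kinases, Plk1 (log2 fold change 0.83, adjusted p = 0.0147), which drives mitosis, and Plk4 (0.51, adjusted p = 0.0148), which starts centriole duplication, were higher in limma but not in the methods' t-test. Plk3 had a log2 fold change of -0.52 and did not pass (adjusted p = 0.216). Of the Zmat genes, Zmat1 (0.35) and Zmat2 (0.36) were likewise higher in limma only, Zmat5 (-0.19) was lower, and Zmat4 had a log2 fold change of 0.01 without passing the test.

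The relatives of members that did not pass were described in the same way. Btg1, an antiproliferative relative of Btg2, had log2 intensities of 12.27, 12.72 and 12.37 in AGR cells and of 13.30, 13.30 and 13.23 in NME cells (log2 fold change -0.83, adjusted p = 0.00229). Ccng2, which encodes cyclin G2, fell in AGR cells (-0.68, adjusted p = 0.00135), whereas Ccng1 lay higher without passing. The exonuclease Isg20 (-0.30), which resembles Aen and neighbours it on the chromosome, was also lower. Chosen after their values were seen, Tob1 of the Btg family (-0.47) was lower, and the sestrins Sesn2 (-0.26, adjusted p = 0.0935) and Sesn3 (-0.02, adjusted p = 0.904) did not pass.

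**Figure D3:**
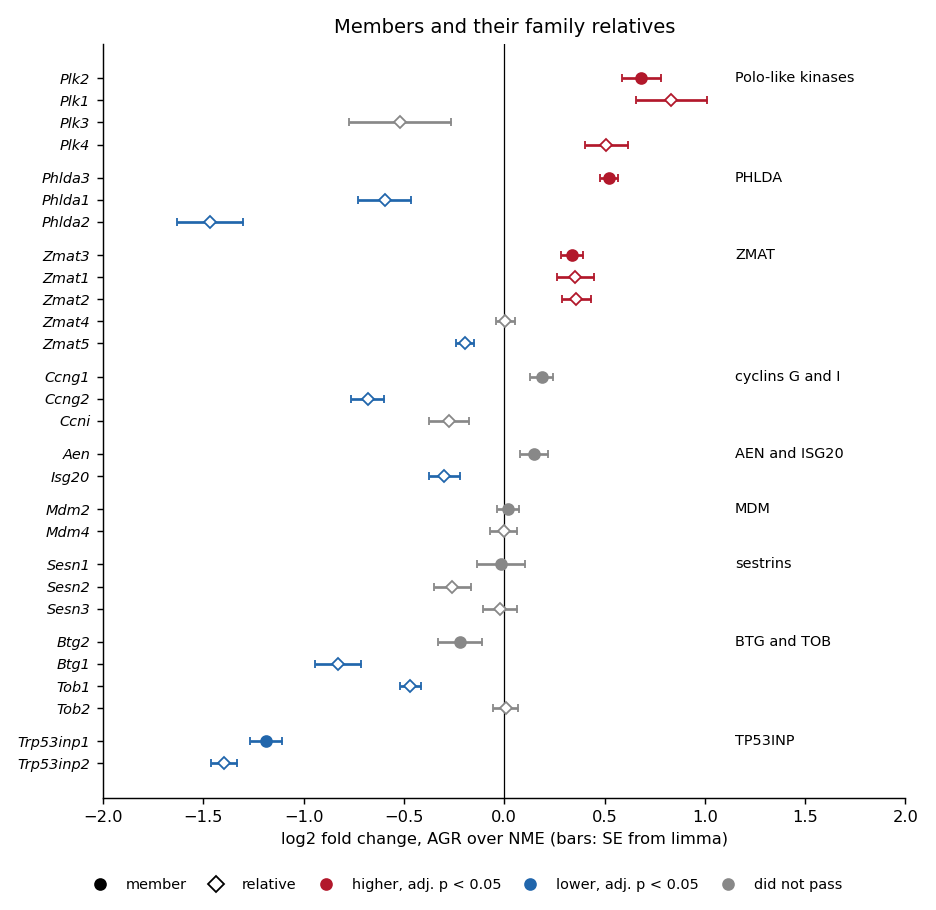
Log2 fold change (AGR minus NME) of each measured member (filled) and of the relatives in its gene family (open), with bars of 1 SE and colour for the genes that passed. Trp53inp1 and Trp53inp2 lie together far below 0, while Phlda3 lies above 0 and Phlda1 and Phlda2 below it.

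Upstream of p53, 6 of 12 measured kinases and cofactors were higher in AGR cells and 2 were lower, where 12.6% and 11.6% of all genes were called, with a median log2 fold change of 0.19 against -0.02 over all genes. Atm, the kinase that senses double-strand breaks, had log2 intensities of 9.78, 9.44 and 9.85 in AGR cells and of 8.91, 8.66 and 8.89 in NME cells, and its log2 fold change was 0.87 (SE 0.12, adjusted p = 0.00259). Chek1 (0.81), a checkpoint kinase downstream of Atr, the acetyltransferase Crebbp (0.58) and the DNA-dependent kinase Prkdc (0.54) also rose. Atm and Chek1 lie on chromosome 9, as does Atr (0.46), which was also called higher. Crebbp and Prkdc lie on chromosome 16. So do Usp7, which rose, and Trp63, which did not pass, both described next. The part of position in these changes was not tested. The acetyltransferase Ep300 (-0.16) and the p53-binding protein Ppp1r13b (-0.33) were lower.

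Among 9 inhibitors and ubiquitin enzymes of p53, 1 was higher and 1 lower, a called share of 22.2% beside 24.2% of all genes. Usp7, a deubiquitinase of Mdm2 and p53, rose in AGR cells, with log2 intensities of 12.17, 12.24 and 12.26 in AGR cells and of 11.59, 11.56 and 11.57 in NME cells (log2 fold change 0.65, adjusted p = 0.000114). Rchy1, the ubiquitin ligase also called Pirh2 and a p53 target, fell in AGR cells (-0.67, adjusted p = 0.00302). The p53 relatives Trp63 (0.02) and Trp73 (-0.02), chosen after their values were seen, did not pass in limma, where neither had an unadjusted p under 0.05, or in the methods' t-test.

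Further p53 targets outside the 10 members moved in both directions. Of 39 measured, 14 rose and 4 fell in AGR cells, with a median log2 fold change of -0.01. Those called made up 46.2%, against 24.2% of all genes, and the methods' t-test called 10 of them. Among genes whose mean reached the median of all probe sets, 18 further targets were called. Of all 11702 such genes, 2549 were called higher and 2239 lower. Leaving out replicate 3 of AGR, or replicate 2 or 3 of NME, gave 9. Cdkn1a, the p21 gene and the best known p53 target, shared its probe set annotation with another symbol and was not analysed here.

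In cell cycle arrest, Ckap2 (1.01), a spindle protein, and Gtse1 (0.72), which restrains p53 in G2, were higher, and Btg1 was lower, out of 8 measured (2 higher and 1 lower, beside 12.6% and 11.6% of all genes). The methods' t-test called none of them higher. The second AGR array was lower than the others for Ckap2 (10.47, 9.44 and 10.45 in AGR cells against 9.12, 8.85 and 9.34 in NME cells) and for Gtse1 (9.46, 8.66 and 9.37 in AGR cells against 8.40, 8.48 and 8.46 in NME cells). Gadd45a, a stress sensor chosen after its values were seen, had a log2 fold change of -0.48 that did not pass (adjusted p = 0.0896). In apoptosis 5 of 14 were higher, beside 12.6% of all genes. Pidd1 (0.71), a scaffold of the PIDDosome, and Pmaip1 (0.65), the BH3-only protein Noxa, had the largest increases, followed by Trp53i11 (0.39), Ei24 (0.28) and Siva1 (0.28). In this group none was called lower by limma or by the methods' t-test, while 3 had a log2 fold change below 0 at an unadjusted p under 0.05.

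Among targets in DNA repair and metabolism 7 of 17 were higher and 3 lower, beside 12.6% and 11.6% of all genes. Ak1, an adenylate kinase, had log2 intensities of 10.38, 10.11 and 10.34 in AGR cells and of 8.18, 8.13 and 8.27 in NME cells. It was 4.24-fold higher in AGR cells, the largest change of the 39 further targets measured (log2 fold change 2.08, SE 0.08, adjusted p = 1.19e-05). Polh (0.91), the polymerase that copies past ultraviolet lesions, the ubiquitin ligase Trim32 (0.41) and the excision repair nuclease Ercc5 (0.33) also rose. Prkab1 (-0.57), a subunit of AMP-activated kinase, the damage recognition gene Ddb2 (-0.34) and the polymerase Polk (-0.29) fell in AGR cells.

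Genes that p53 lowers through p21 and the DREAM repressor complex, mostly genes of the cell cycle, were compared as well. Of 16 measured 9 were higher in AGR cells and none was called lower, beside 12.6% and 11.6% of all genes, with a median log2 fold change of 0.69. At an unadjusted p under 0.05, 12 were higher and 0 lower in limma, and the methods' t-test called 2 higher and 0 lower. E2f1, a transcription factor of S phase entry, had log2 intensities of 10.45, 10.14 and 10.43 in AGR cells and of 9.36, 8.96 and 9.37 in NME cells (log2 fold change 1.11, adjusted p = 0.0014). Mcm5 (1.09), a helicase subunit, the repair gene Brca1 (0.89) and the centromere gene Cenpf (0.86) followed, and the proliferation marker Mki67, chosen after its values were seen, had a log2 fold change of 0.90 that did not pass (adjusted p = 0.058).

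In this list the second array was the lowest of its line, in AGR cells and in NME cells alike. Relative to the NME mean, the median of the 16 genes was 0.81, 0.25 and 0.91 on the AGR arrays and 0.03, -0.17 and 0.13 on the NME arrays. Without the second AGR array 14 of the 16 were called, and leaving out any other array in turn gave 4 to 6. With the replicate number as a block 14 were called as well. Whether the arrays of replicate 2 share a cause was not tested. Among the 9 members the second AGR array was the highest of the AGR arrays for 6 and the lowest for 2, and the first was the highest for 1 and the lowest for 7, with ties counted for both arrays. Over all 19938 genes the second AGR array was the highest for 7520 and the lowest for 7784, and the first was the highest for 8233 and the lowest for 6496. Either extreme was held by the second for 75.3% and by the first for 72.4% of genes. Without the second AGR array Ccng1 passed (0.24), while Mdm2 (-0.02) and Sesn1 (0.11) changed sign without passing. The part of proliferation in the members' changes was not tested.

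**Figure D4:**
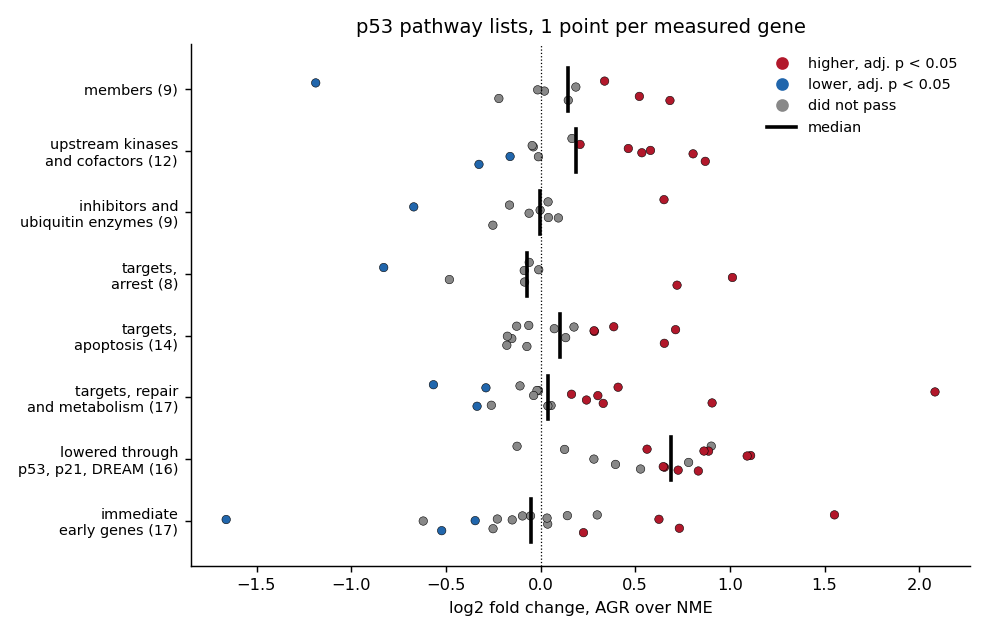
Log2 fold change (AGR minus NME) of every measured gene in each pathway list, with 1 point per gene, called genes marked, and a bar at the median of the list. The genes lowered through p53, p21 and DREAM lie mostly above 0 (median 0.69), while the lists of p53 targets spread to both sides.

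Plk2 and Btg2 are also induced by growth factors, so immediate early genes were counted. Of 17 measured 4 were higher and 3 lower, beside 12.6% and 11.6% of all genes, with a median log2 fold change of -0.05, and 3 to 4 were called without replicate 3 of AGR or replicate 1 or 2 of NME. Ccn1, a matrix protein, rose most (1.55, adjusted p = 3.53e-05), ahead of the phosphatase gene Dusp1 (0.73), Jun (0.63) and Fosb (0.23). Fos fell most, with log2 intensities of 7.86, 7.84 and 7.79 in AGR cells and of 9.52, 9.30 and 9.65 in NME cells (log2 fold change -1.66, adjusted p = 4.24e-05), ahead of the mRNA decay factor Zfp36 (-0.52) and Ier2 (-0.35). Egfr itself had log2 intensities of 12.40, 12.75 and 12.48 in AGR cells and of 12.29, 12.38 and 12.26 in NME cells. Its AGR arrays lay above its NME arrays, and the log2 fold change of 0.23 did not pass (adjusted p = 0.139).

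Position was not used to choose the members, so each was compared with the 10 measured genes on each side along its chromosome (order from RefSeq GRCm38.p6). The median log2 fold change of these 20 neighbours lay near 0 for all 9 members, between -0.08 for Sesn1 and Btg2 and 0.02 for Phlda3. Around Trp53inp1 on chromosome 4 the median was 0.01, with the nearest genes Ndufaf6 at 0.00 and Ccne2, which encodes cyclin E2, at 0.90 (adjusted p = 0.00115). Around Plk2 on chromosome 13 it was -0.03, with Gapt at -0.02 and Actbl2 at -0.12, and around Zmat3 on chromosome 3 it was 0.01, with Kcnmb2 at -0.03 and 4930429B21Rik at 0.24. None of these descriptions was tested.

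For Phlda3 on chromosome 1 and Sesn1 on chromosome 10 the value depended on how many neighbours were taken. Around Phlda3, with 5 neighbours on each side the median log2 fold change was 0.56, close to the 0.52 of Phlda3 itself, and 6 of the 10 were called higher and 1 lower. Its nearest neighbours were Csrp1 (0.46, adjusted p = 0.00482) and Tnni1 (0.05). With 20 neighbours on each side the median was 0.04, and 12 of the 40 were called higher and 6 lower, beside 12.6% and 11.6% of all genes. Around Sesn1 the median was -0.30 with 5 neighbours on each side, of which 6 of 10 were called lower and 0 higher. With 10 on each side 7 of 20 were called lower and 1 higher, and with 20 on each side 13 of 40 lower and 1 higher. The nearest genes of Sesn1 were Cep57l1 (0.28) and Armc2 (0.03). The nearest genes of the other members were Cpm (-0.37) and Slc35e3 (-0.18) for Mdm2, Nudcd2 (0.11) and Gabra6 (0.07) for Ccng1, Mir7-2 (-0.06) and Isg20 for Aen, and Fmod (-0.04) and Chit1 (-0.10) for Btg2.

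The genes most like the 3 members with the largest changes were found from their mean-centred log2 profile over the 6 arrays, by Euclidean distance. For Trp53inp1 these were Pilrb1 (distance 0.15), Adgrg1 (0.16) and Sertad4 (0.17), with log2 fold changes between -1.26 and -1.15. For Plk2 they were Stac (0.10), Trps1 (0.12) and Morc4 (0.13), and for Phlda3 they were Knop1 (0.04), Yars2 (0.05) and Lclat1 (0.05).

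Across the series, the deposited intensities covered 35557 probe sets with array medians between 190.4 and 201, and correlations were 0.995 to 0.997 within a cell line and 0.986 to 0.988 between the lines. The epithelial keratins Krt8 and Krt18 were bright in both lines, whereas Epcam, Cldn7, Krt5 and Krt14, which are 4 of 8 epithelial markers, were in the lower part of all probe sets (under their median) in both. Summed epithelial marker intensity was 38226 to 39290 on AGR arrays and 44508 to 44682 on NME arrays, with Cdh1 called lower (-0.60) out of the 8. Summed immune marker intensity was 1091 to 1136 on AGR arrays and 795 to 864 on NME arrays, with Cd68 (0.96) and Csf1r (0.28) called higher out of 5. The sums of fibroblast markers were 1300 to 1374 on AGR arrays and 1247 to 1390 on NME arrays, with Pdgfra (0.39) called higher out of 6, and those of endothelial markers were 422 to 463 on AGR arrays and 438 to 493 on NME arrays, where all 4 were under that median in both lines. The part of these differences in the members' changes was not tested. All 9 measured members lay above that median in both lines, and each had 1 probe set with a single symbol, so that no member could be compared between probe sets.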

How the data were processed

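Total RNA of AGR and NME cells was measured on Mouse Gene 1.0 ST arrays, 3 per line, and each array's line was read from its title. What the authors deposited is a linear intensity per probe set and array. The submitters' processing notes name MAS5 without a version, and this array type carries no mismatch probes, so the normalization is unknown and the genome build is not given in the sources used here. There are no counts or detection calls, so dim probe sets cannot be separated from background, and precision is limited by the 3 arrays per line.

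Log2 was taken without an offset. Of 35557 probe sets, 21789 with 1 gene symbol in the platform annotation were kept, 1621 with several and 12147 with none were left out, and 21698 matched RefSeq (GRCm38.p6) by gene ID. The brightest probe set represented each of 19938 genes, of which 999 had several. The lines were compared in limma 3.58.1 under R 4.3.3 (lmFit, eBayes), with Benjamini-Hochberg adjustment over all genes and a threshold of 0.05. The steps were tested on simulated data. Trp53, Cdkn1a, Bax, Trp53rk, Gls2, Fdxr, Gdf15, Ccnb1 and Btg3 were among the listed genes not analysed here.

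The members and the gene lists were chosen with earlier results of these data known. Named were all members, from each list the 4 called genes with the largest increases and the 4 with the largest decreases (all where 5 or fewer moved 1 way), relatives of called members, nearest measured neighbours, and the 3 genes with the closest profile to each of the 3 members that changed most. The alternatives were quantile normalization, median centring, filters on dim genes, the mean of a gene's probe sets, every probe set, trended and robust eBayes, an offset of 16, a fold threshold of 2, the two-sided t-test of the methods, the replicate number as a block, other numbers of neighbours, and leaving out each array.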

Additional observations from a re-analysis of the deposited data

How the results depend on the processing

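Plk2, Phlda3, Zmat3 and Trp53inp1 kept their direction and passed the adjusted p threshold under all 16 alternatives that did not add the fold threshold of 2. Their log2 fold changes were 0.61 to 0.80, 0.49 to 0.55, 0.29 to 0.37 and -1.25 to -1.12. Aen passed under none of these 16. Ccng1 passed with quantile normalization (0.24, adjusted p = 0.0153), without genes below the median (0.19, adjusted p = 0.0452) and with trend and robust settings (0.19, adjusted p = 0.0294), and its range when arrays were left out was 0.14 to 0.24. Sesn1 changed sign with quantile normalization (0.0105) and median centring (0.0115), and without replicate 1 (0.01) or 3 (0.04) of NME or replicate 2 of AGR (0.11), over a range of -0.0945 to 0.109. Mdm2 changed sign without replicate 3 of NME (-0.00) or replicate 2 of AGR (-0.02), over a range of -0.0169 to 0.061, and Btg2 ranged between -0.33 and -0.14. The cause of these changes was not tested. Leaving out 1 array gave 3 to 4 members called higher and 1 to 2 lower, 1755 to 2783 of all genes higher and 1582 to 2573 lower, against 2515 and 2304 with all arrays. With a fold change above 2, 299 genes were higher and 299 lower, and 1 member was called. Of all calls 52.2% were higher, and 58.3% with median centring. The methods' t-test called 5845 genes at an unadjusted p under 0.05 and 3275 after adjustment, among them 5 and 4 members. It called 10 of the 18 further targets, 2 of the 9 DREAM genes, 6 of the 12 relatives and 3 of the 7 immediate early genes, and a test of all probe sets called 6 DREAM and 4 immediate early genes. Leaving out 1 array gave 9 to 21 further targets, 4 to 14 DREAM genes, 7 to 15 relatives, 3 to 6 immediate early genes, 6 to 7 upstream genes and 2 to 3 inhibitors. With the replicate number as a block 14 DREAM genes were called, and no member's call changed. Deviations from the group means correlated at -0.13, 0.33 and 0.26 between same-numbered arrays of the lines, and at -0.47 to 0.36 between arrays of different number. These values do not settle whether the arrays are paired. The labels name no shared culture, so the main comparison was not paired.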
